A study of Homo sapiens with 12 samples.

Results

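Marker genes of ovarian and Müllerian lineage, 10 in all, were followed in the cisplatin-sensitive epithelial ovarian cancer line SKOV3 and its cisplatin-resistant counterpart SKOV3/DDP. The rule names the 10 genes by symbol, as known markers of the tissue, and sets no threshold on their values, out of 46350 named genes in the deposited counts. They comprise 4 transcription factors (PAX8, WT1, SOX17 and EMX2), the estrogen receptor ESR1, and 5 genes of surface or secreted antigens (MUC16, WFDC2, MSLN, FOLR1 and MUC1). Each symbol matched 1 row in every library. The 12 RNA libraries form 4 groups of 3: untreated SKOV3, SKOV3 with paeonol (PAE, a plant-derived phenol), untreated SKOV3/DDP, and SKOV3/DDP with PAE. No dose, treatment time, batch or date was given in the labels, and the study describes SKOV3/DDP as a stable resistant line developed from SKOV3. The lines differed in genes that were without a count in one and abundant in the other: WFDC2 and FOXL2 had none in SKOV3/DDP, and the intestinal genes CDH17 and CDX2 none in untreated SKOV3. Whether the libraries share a line of origin was not tested, so that values between the lines are differences and not changes over time. The labels do not say which replicates came from separate cultures, so that p-values measure only the spread between these samples, which may be technical.

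The Müllerian ducts of the embryo give rise to the oviduct, uterus and upper vagina, and PAX8, EMX2 and WT1 are transcription factors active in their formation. Most non-mucinous ovarian carcinomas keep PAX8, and the serous type commonly keeps WT1 and ESR1 as well, which is why pathologists stain for these proteins to place a tumor of unknown origin. MUC16 carries the serum antigen CA125, WFDC2 encodes the serum marker HE4, mesothelin (MSLN) is a surface protein that binds MUC16, FOLR1 is folate receptor alpha, and MUC1 is a membrane mucin of many glandular epithelia.

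Of the 4 members that were lower in SKOV3/DDP than in SKOV3, WFDC2, PAX8 and MUC1 had a RefSeq promoter window at the start site of the deposited coordinates. These 3 windows are printed because all 3 genes were lower in SKOV3/DDP. Each runs 5′ to 3′ on the gene's strand, from 250 bases before the start to 50 after it, on GRCh38.p14. Capitals mark the letters TATAAA or GGGCGG, searched on both strands. WFDC2 lies at chr20:45469503-45469802 (forward strand), PAX8 at chr2:113278872-113279171 (reverse strand) and MUC1 at chr1:155192866-155193165 (reverse strand).
WFDC2: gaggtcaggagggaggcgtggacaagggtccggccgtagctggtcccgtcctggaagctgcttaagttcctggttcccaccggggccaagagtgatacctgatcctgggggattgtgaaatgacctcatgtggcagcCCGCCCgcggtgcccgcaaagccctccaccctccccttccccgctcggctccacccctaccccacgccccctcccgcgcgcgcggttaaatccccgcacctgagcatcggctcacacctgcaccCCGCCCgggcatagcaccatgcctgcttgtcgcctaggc
PAX8: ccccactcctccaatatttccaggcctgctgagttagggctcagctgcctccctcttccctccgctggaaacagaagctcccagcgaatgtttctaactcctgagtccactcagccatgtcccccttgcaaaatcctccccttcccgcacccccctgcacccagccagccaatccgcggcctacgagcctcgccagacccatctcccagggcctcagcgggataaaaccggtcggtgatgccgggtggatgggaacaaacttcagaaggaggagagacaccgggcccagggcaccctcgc
MUC1: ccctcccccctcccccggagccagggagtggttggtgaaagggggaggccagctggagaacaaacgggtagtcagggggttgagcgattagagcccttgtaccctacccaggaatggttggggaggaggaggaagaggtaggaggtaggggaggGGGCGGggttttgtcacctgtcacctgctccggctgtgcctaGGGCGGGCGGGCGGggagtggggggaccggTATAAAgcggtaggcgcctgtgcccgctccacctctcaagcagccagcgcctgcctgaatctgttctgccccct

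The content of G and C was 67.3% for WFDC2, 62.0% for PAX8 and 65.7% for MUC1, against a median of 58.7% over 34796 distinct promoter windows of the same length. WFDC2 held 22 CpG dinucleotides, and PAX8 and MUC1 held 13 each, against a median of 14. The letters TATAAA were found in MUC1 only of the 3, and 11.6% of all windows hold them. GGGCGG on either strand was found at 4 positions in MUC1, 3 of them overlapping, at 2 in WFDC2 and at none in PAX8, while 44.9% of all windows hold it. Neither set of letters was common to the 3 windows, and a match of letters is a description only.

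Values are CPM, a gene's counts relative to its library total, scaled by the TMM factors of 1 fit of all 12 libraries. Library totals ranged from 14610008 to 18263479 counts, with a median of 16260043. For a gene without counts, the limit that 3 counts over the group set was 0.0862 CPM in SKOV3, 0.0537 in SKOV3 with PAE, 0.0606 in SKOV3/DDP and 0.0501 in SKOV3/DDP with PAE, and it covers counting error only. Genes with a count numbered 18478 to 18766 in the untreated SKOV3 libraries and 22078 to 23823 in all others. The part of this in genes at 0 counts in untreated SKOV3 was not tested. Mitochondrial genes held 1.29% to 2.44% of counts in SKOV3 libraries and 3.93% to 11.2% in SKOV3/DDP libraries, with PAE included. The 3 untreated SKOV3 libraries also stood apart in base composition. Across 15682 genes, which are not independent replicates, their log2 CPM relative to the mean of the 12 libraries rose with GC content (Spearman correlations 0.669 to 0.675), and in the other 9 libraries it fell (−0.534 to −0.325). Members' fold changes that use untreated SKOV3 are therefore also given with a GC and length trend removed from every library, and the lines are also compared under PAE. Libraries of a group were compared by a chi-square over genes per degree of freedom. SKOV3/DDP replicate 2 differed more from its group (82.4 and 89.7) than the other libraries of that group from each other (15.0). So did replicate 3 of SKOV3/DDP with PAE (61.5 and 78.4, against 19.8) and replicate 2 of SKOV3 (55.4 and 36.2, against 19.1). In SKOV3 with PAE all pairs were at 59.1 to 63.8.

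Among the transcription factors, PAX8 was the only one with appreciable counts. PAX8 (Gene ID 7849, chromosome 2 from 113215997 to 113278921) was measured at 34.0, 23.3 and 31.9 CPM in untreated SKOV3 and at 8.37, 16.6 and 14.7 CPM in SKOV3 with PAE. In SKOV3/DDP it was measured at 3.40, 3.41 and 5.57 CPM, and with PAE at 2.45, 3.62 and 1.27 CPM. Every SKOV3 library, treated or not, lay above every SKOV3/DDP library. The group means were 29.7 ± 5.67, 13.2 ± 4.30, 4.13 ± 1.25 and 2.45 ± 1.18 CPM (SD, n = 3 each) in that order.

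The other factors were at or near 0 in both lines. WT1, a zinc finger factor of the gonad, kidney and mesothelium, had no count in SKOV3, 2 counts in SKOV3 with PAE, 2 in SKOV3/DDP and 6 in SKOV3/DDP with PAE. EMX2, a homeobox factor of the urogenital tract, had 1 count in all 12 libraries, in SKOV3 with PAE. SOX17, an SRY-box factor of the oviduct and endometrium, had 0 counts in all 12 libraries. ESR1 had 0 counts in the SKOV3 libraries, 14 in SKOV3 with PAE, of which 10 fell in replicate 1, 12 in SKOV3/DDP and 2 in SKOV3/DDP with PAE. These 4 genes had too few counts to be tested, so that 6 of the 10 members entered each fit.

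WFDC2, a secreted protease inhibitor, was the most abundant member per length in SKOV3 and was without a count in SKOV3/DDP. WFDC2 (Gene ID 10406, chromosome 20 from 45469753 to 45481532) was measured at 340.4, 254 and 329 CPM in untreated SKOV3 and at 186, 203 and 95.1 CPM in SKOV3 with PAE. Those libraries held 10701 and 9010 counts, against 0 counts in the 3 libraries of SKOV3/DDP and 0 in its 3 libraries with PAE. The lines therefore did not overlap in any library.

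MUC1 followed the same order as PAX8. MUC1 (Gene ID 4582, chromosome 1 from 155185824 to 155192915) was measured at 50.4, 32.7 and 59.7 CPM in untreated SKOV3 and at 30.9, 28.4 and 21.8 CPM with PAE. In SKOV3/DDP it was at 3.98, 3.79 and 4.10 CPM, and with PAE at 4.12, 3.15 and 0.825 CPM. The highest SKOV3/DDP library was thus well below the lowest SKOV3 library, under either treatment.

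MUC16 was low in all groups, and lowest in SKOV3/DDP. MUC16 (Gene ID 94025, chromosome 19 from 8848840 to 9010390) was measured at 1.33, 2.39 and 2.54 CPM in untreated SKOV3 and at 6.68, 10.97 and 4.58 CPM with PAE. The SKOV3/DDP libraries were at 0.173, 0.568 and 0.428 CPM from 19 counts together, and those with PAE at 0.294, 0.658 and 0.385 CPM from 27 counts. SKOV3 with PAE was the highest group, and both SKOV3/DDP groups lay below all SKOV3 libraries.

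The remaining antigens went the other way. MSLN (Gene ID 10232, chromosome 16 from 760734 to 768865) was measured at 143, 155 and 149 CPM in untreated SKOV3 and at 42.1, 68.7 and 20.2 CPM with PAE. In SKOV3/DDP it was at 337, 432 and 397 CPM, and with PAE at 365, 278 and 248 CPM. FOLR1 (Gene ID 2348, chromosome 11 from 72189709 to 72196323) was all but confined to SKOV3/DDP, at 35.2, 41.2 and 31.6 CPM without and 23.6, 22.04 and 16.8 CPM with PAE. SKOV3 held 4 counts of FOLR1, all in replicate 1, and SKOV3 with PAE held 6.

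**Figure D1:**
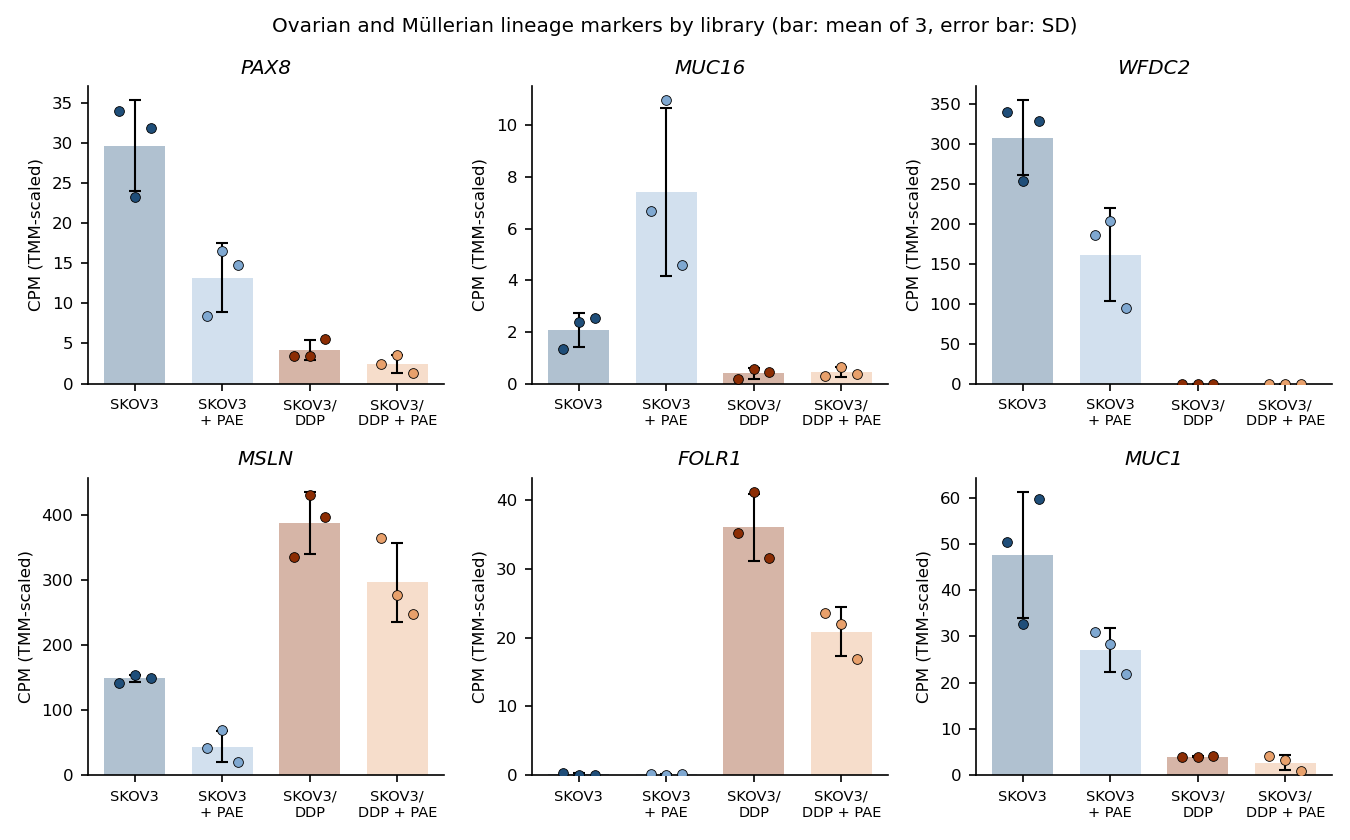
CPM of the 6 members with enough counts to be tested, by group. Each point is 1 library, bars are means of 3 libraries and error bars are SDs, and each panel has its own vertical axis. WFDC2, PAX8, MUC1 and MUC16 are lower in both SKOV3/DDP groups, where WFDC2 is at 0, and MSLN and FOLR1 are higher.

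Set against each other per kilobase of gene length, as the files give it, the members ranked differently in the lines. In untreated SKOV3 the order of mean levels was WFDC2 (543 CPM per kb), MSLN (66.9), MUC1 (11.7), PAX8 (7.32), FOLR1 (0.109) and MUC16 (0.0472). In untreated SKOV3/DDP it was MSLN (175 CPM per kb), FOLR1 (33.1), PAX8 (1.02), MUC1 (0.971) and MUC16 (0.00882), with WFDC2 at 0. PAX8 and MUC1 were neighbors in both orders, and their libraries overlapped per kb in both lines, as did those of FOLR1 and MUC16 in SKOV3. The other neighbors did not overlap in any library. With PAE in SKOV3, MUC16 (0.168) ranked above FOLR1 (0.0995), their libraries again overlapping, and the order of the other members was as in untreated SKOV3. MSLN was the only member above 10 CPM per kb in all 4 groups.

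The first comparison asked how untreated SKOV3/DDP differed from untreated SKOV3, in a fit of those 6 libraries with TMM factors of its own. All 6 tested members passed an adjusted p of 0.05 (the quasi-likelihood test of edgeR, Benjamini-Hochberg adjusted over 15323 genes). MSLN and FOLR1 were higher in SKOV3/DDP, in a comparison where 46.1% of all tested genes were called higher. PAX8, MUC16, WFDC2 and MUC1 were lower, where 38.5% of all genes were called lower. With 84.7% of all genes called in either direction, 6 of 6 members called is near the background. The median log2 fold change of the 6 members was −2.69, also with WFDC2 set to its bound, against 0.41 over all genes. WFDC2 (0 counts in SKOV3/DDP) passed the filter through SKOV3 alone, and FOLR1 (4 counts in SKOV3) through SKOV3/DDP alone. The directions of these genes were thus fixed by the filter.

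WFDC2 was at least 5074-fold lower in SKOV3/DDP, computed against 3 counts in the group without any. FOLR1 had a log2 fold change of 8.12 (SE 0.65, adjusted p = 7.17e-06), which rests on 4 counts in SKOV3 replicate 1. Without that library FOLR1 had no count in SKOV3 and was at least 282-fold higher in SKOV3/DDP, against 3 counts over the remaining libraries. MUC1 had a log2 fold change of −3.64 (SE 0.28, adjusted p = 5.2e-06) and PAX8 of −2.90 (SE 0.29, adjusted p = 2.49e-05). MUC1 and PAX8 had at least 196 counts in each untreated group. MUC16 had a log2 fold change of −2.47 (SE 0.51, adjusted p = 0.00176) and MSLN of 1.32 (SE 0.16, adjusted p = 6.45e-05). For each of the 6 genes the libraries of the lines did not overlap, and the exact permutation test of log2 CPM (2-sided) gave p = 0.1, the smallest that 3 libraries against 3 allow. The share of all genes without overlap was not computed. With 84.7% of all genes called, 6 of 6 without overlap is no result about the members.

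The sizes moved when the GC and length trend was removed from every library, while no direction did. Then the log2 fold change was −1.47 for PAX8, −1.71 for MUC1, −3.54 for MUC16, 3.91 for MSLN and 10.39 for FOLR1. All 6 members kept their call in every setting that tested them by adjusted p. With at least 10 counts required in every library only PAX8, MSLN and MUC1 were tested, and all 3 passed.

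With PAE in both lines, a contrast of the treated libraries within the fit of all 12, the same 2 members were higher and the same 4 lower in SKOV3/DDP. In that comparison 27.5% of 17133 genes were called higher and 27.1% lower, so that 6 of 6 members stood against 54.5% of all genes. WFDC2 was at least 3215-fold lower. MUC16 had a log2 fold change of −4.03 (SE 0.52), MUC1 of −3.31 (SE 0.42), PAX8 of −2.42 (SE 0.38), MSLN of 2.77 (SE 0.34) and FOLR1 of 7.50 (SE 0.55), each with an adjusted p of at most 8.72e-05 (the quasi-likelihood test of edgeR, Benjamini-Hochberg adjusted). Removing the GC trend left the 5 fitted values between −4.33 for MUC16 and 7.72 for FOLR1. The median of the 6 members was −2.87 on the log2 scale, against 0.06 over all genes, where WFDC2 again passed the filter through SKOV3 alone and FOLR1 through SKOV3/DDP alone. A fit of the 6 libraries with PAE alone, where untreated SKOV3 enters neither the scaling nor the spread, called the same 6 members, with −4.09 for MUC16, −3.37 for MUC1, −2.48 for PAX8, 2.70 for MSLN and 7.45 for FOLR1.

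**Figure D2:**
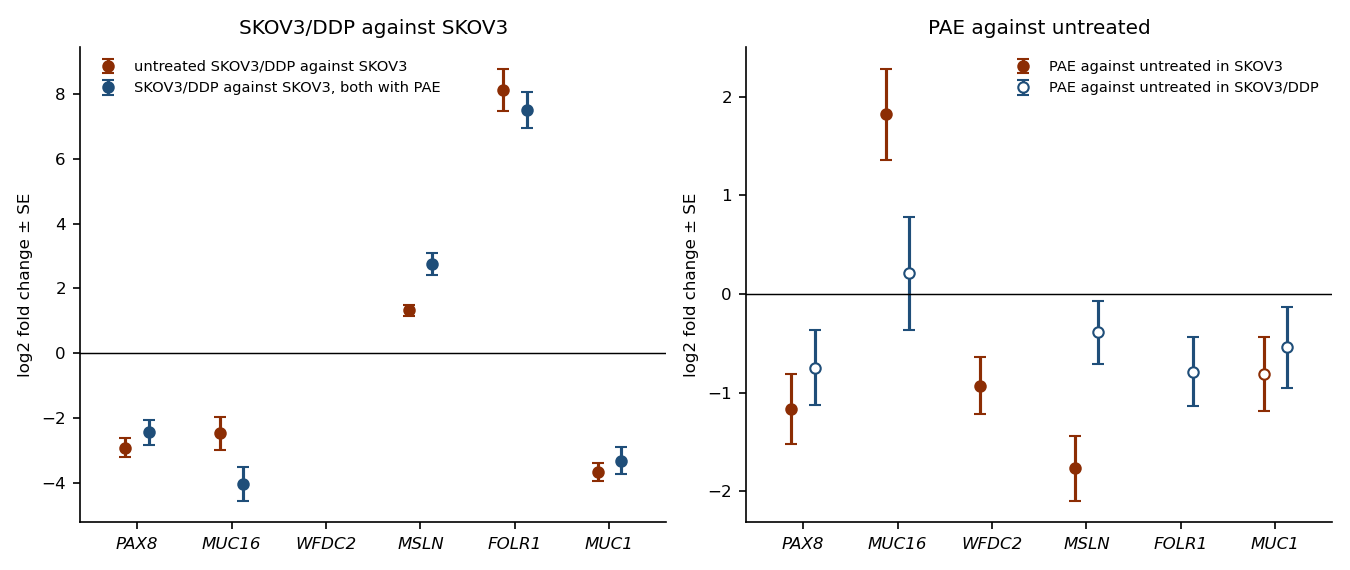
Log2 fold changes with their SE (error bars) for SKOV3/DDP against SKOV3 (left) and for PAE against untreated cells (right), on different vertical scales. Filled points have an adjusted p under 0.05. WFDC2 is left out where a group had no count, and FOLR1 where both groups had under 10 counts. In both comparisons of the lines MSLN and FOLR1 lie above 0 and PAX8, MUC16 and MUC1 below, and no member passed with PAE in SKOV3/DDP.

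PAE in SKOV3 was the next comparison, from the fit of all 12 libraries. MUC16 was higher with PAE, at a log2 fold change of 1.82 (SE 0.46, adjusted p = 0.00225), where 42.6% of all genes were called higher. MSLN (−1.77, SE 0.33, adjusted p = 0.000168), PAX8 (−1.17, SE 0.36, adjusted p = 0.00831) and WFDC2 (−0.93, SE 0.29, adjusted p = 0.0120) were lower, where 32.7% were called lower. MUC1 was at −0.82 (SE 0.38, adjusted p = 0.0610), all from the quasi-likelihood test of edgeR, Benjamini-Hochberg adjusted. With 75.3% of all genes called in either direction, 4 of 6 members called is no result about the members. Under TMM scaling the 3 libraries with PAE did not overlap with the untreated ones for any of these 5 genes. By library totals those of PAX8, WFDC2 and MUC1 did overlap. The share of all genes without overlap was not computed.

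The decreases with PAE depended on how the untreated SKOV3 libraries were scaled. Scaling by library totals moved the median over all genes from 0.48 to 1.36 on the log2 scale, and PAX8 was then at −0.28 (adjusted p = 0.517), WFDC2 at −0.054 (adjusted p = 0.884) and MUC1 at 0.059, while MSLN stayed lower at −0.89 and MUC16 higher at 2.70. With the GC and length trend removed, all 5 values were above 0. MSLN was then at 0.97 (adjusted p = 0.00255) and MUC1 at 1.55 (adjusted p = 0.00223), both higher, and PAX8 (0.30), WFDC2 (0.75) and MUC16 (0.98) did not pass. Those adjusted p-values come from the quasi-likelihood test of edgeR, Benjamini-Hochberg adjusted. The effect of PAE in this line and the trend cannot be told apart, since the same libraries carry both. Of the 5 genes only MUC16 kept its direction in every setting that tested it, and by adjusted p it was called in all of them but the 2 with the trend removed. At 1.82 it did not meet the criteria of the methods, which ask for more than 2.

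**Figure D3:**
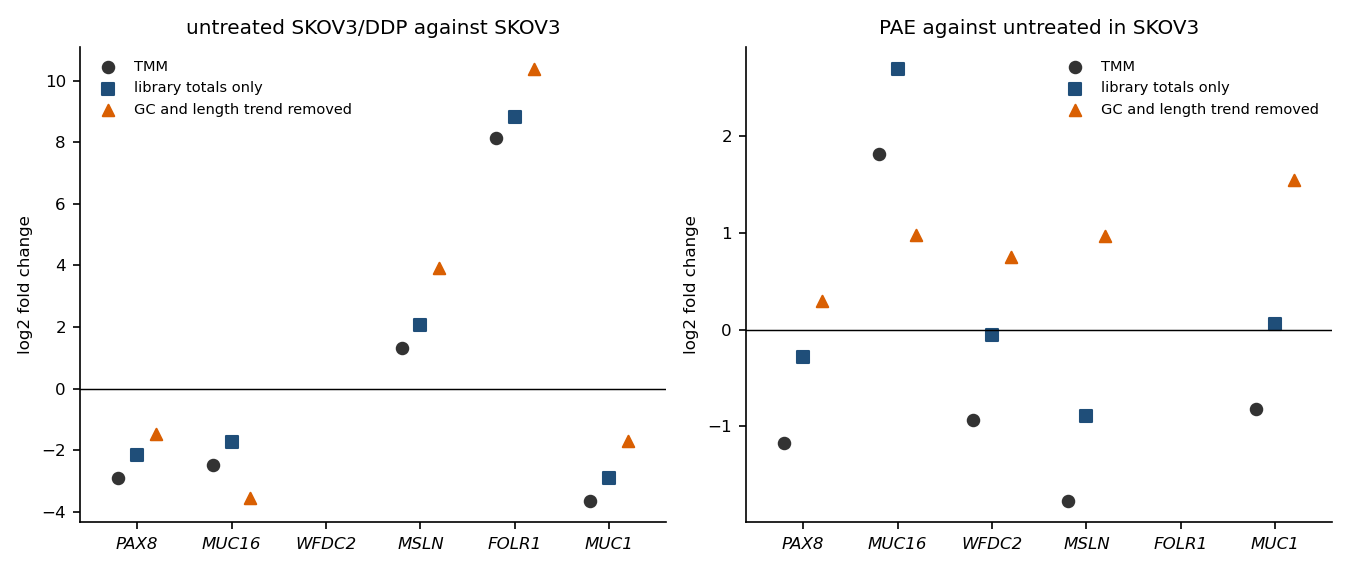
Log2 fold changes of the members under TMM scaling, under library totals only and with the GC and length trend removed, for untreated SKOV3/DDP against SKOV3 (left) and for PAE in SKOV3 (right). WFDC2 is left out of the left panel and FOLR1 of the right one for want of counts. The 5 directions on the left hold under each scaling, whereas on the right MSLN goes from −1.77 to 0.97 and PAX8 from −1.17 to 0.30.

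In SKOV3/DDP, none of the 6 members tested passed an adjusted p of 0.05 with PAE (edgeR's quasi-likelihood test), in a comparison where 11.8% of 17133 genes were called higher and 14.7% lower. WFDC2 had no count in either group and could not have passed. At an unadjusted p under 0.05 there was 1 member, FOLR1, with a log2 fold change of −0.79 (SE 0.35, adjusted p = 0.109). FOLR1 was lower in all 3 libraries with PAE than in any without, and the share of all genes without overlap was not computed. It was also the 1 member called by DESeq2 (−0.77) and by a fit of this line alone (−0.81). Those were the 2 of 13 alternatives that called FOLR1, and they called 5147 and 5072 genes. PAX8 was at −0.75 (SE 0.38), MUC1 at −0.54 (SE 0.41), MSLN at −0.39 (SE 0.32) and MUC16 at 0.21 (SE 0.57), and for these 4 genes the groups overlapped.

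The difference of the PAE effect between the lines was tested as an interaction term. It passed for MSLN alone, with 1.38 on the log2 scale (SE 0.45, adjusted p = 0.0151, the quasi-likelihood test of edgeR, Benjamini-Hochberg adjusted), where 25.5% of all genes were called higher and 37.4% lower. With the trend removed, the sign of the MSLN term turned, to −1.08 (adjusted p = 0.0133 in the same test), and by library totals it was 0.68 and did not pass. For MUC16 the term was −1.62 (SE 0.74) and did not pass, though it did in 4 of 18 alternatives. For PAX8 it was 0.42 (SE 0.52) and for MUC1 0.27 (SE 0.56), and neither passed. With the trend removed these 2 terms turned, to −0.85 for PAX8 and −1.89 for MUC1. That of MUC1 passed in 2 of 19 alternatives and that of PAX8 in 0 of 19.

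Reads of genes that overlap a member could have been counted with it, since the strand of counting is not given in the sources used here. PAX8-AS1 lies within PAX8 on the opposite strand. It was at 38.0 CPM in SKOV3, 51.0 with PAE, 25.9 in SKOV3/DDP and 26.0 with PAE, and its part in the PAX8 counts was not tested. WT1-AS and EMX2OS, antisense to WT1 and EMX2, were at 0 in all groups. ESR1 overlaps SYNE1, a nuclear envelope gene, which was at 1.41, 6.54, 7.46 and 4.49 CPM in the same order of groups, and the part of its reads in the few ESR1 counts was not tested.

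A further 10 gene lists place the members beside their wider pathways. Of 20 other Müllerian and gonadal factors and signals, 13 were tested between the untreated lines, and 8 were lower and 4 higher in SKOV3/DDP, with a median log2 fold change of −3.43. That is 12 of 13 called, beside 84.7% of all genes. FOXL2, HOXA7 and HOXA9 (0 counts in SKOV3/DDP), PAX2 (1) and LHX9 and WNT7A (7 each) passed the filter through SKOV3 alone. MECOM (3 counts in SKOV3) and OVGP1 (10) passed it through SKOV3/DDP alone. Their directions were thus fixed by the filter, and the split and the median are no result about the list. FOXL2, a transcription factor of ovarian granulosa cells, was at 138 ± 23.1 CPM (SD, n = 3) in SKOV3 and without a count in SKOV3/DDP, at least 2272-fold lower. HOXA11, a homeobox gene of the uterine segment of the duct, was at 26.9 CPM in SKOV3 and 0.703 in SKOV3/DDP. PAX2, a paralog of PAX8 active in the same tract, was at 18.4 CPM against 1 count. GATA6, which marks several endodermal and gonadal tissues, went the other way from 24.9 to 115 CPM. The other genes lower were HOXA7, HOXA9, HOXA10, LHX9 and WNT7A, and the other genes higher were MECOM, OVGP1 (oviductal glycoprotein) and WNT4, at up to 4.13 CPM. With PAE in both lines, 14 were tested, 9 were lower and 2 (GATA6 and OVGP1) higher. In that comparison 27.1% of all genes were called lower and 27.5% higher, 54.5% in all. FOXL2, HOXA7 and HOXA9 again passed the filter through SKOV3 alone. Between the untreated lines the split was also 4 higher and 8 lower by library totals, and 3 higher and 9 lower with the GC trend removed, where MECOM was no longer called and HOXA13 was called lower.

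The other antigens of ovarian carcinoma were split. Of 16, 8 were tested between the untreated lines, of which CLDN4, CLDN3, KLK6 and KLK10 were higher and SLPI, BCAM and CD24 lower in SKOV3/DDP. In that comparison 46.1% of all genes were called higher and 38.5% lower, so that these calls are near the background. KLK6 (1 count in SKOV3) and CLDN3 (4) passed the filter through SKOV3/DDP alone, which fixed their direction. SLPI, a secreted protease inhibitor with WAP domains like those of WFDC2, went from 2181 CPM in SKOV3 to 11.01 in SKOV3/DDP, and to 4.39 there without replicate 2. KLK6, a kallikrein protease, had 1 count in SKOV3 and 175 CPM in SKOV3/DDP. KLK10 was at 47.8 and 199.9 CPM and BCAM at 340.0 and 162 CPM in the 2 lines. BCAM turned, to 1.02, with the trend removed, which gave 6 higher and 2 lower, and library totals gave 5 and 2. With PAE in both lines the same 4 were higher, and SLPI and CD24 lower, where 27.5% of all genes were called higher and 27.1% lower.

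Of the lists tied to single members, those of folate uptake and membrane mucins did not move with their members as a block. Beside FOLR1, which was higher in SKOV3/DDP, the folate carriers SLC19A1 (102 to 15.9 CPM) and SLC46A1 (70.8 to 30.4 CPM) were lower there, untreated and with PAE in both lines. FOLR2 was at 0, and FOLR3 had at most 4 counts in a group. Beside MUC1 and MUC16, which were lower, the gut membrane mucins MUC13 (0.439 to 333 CPM) and MUC3A (0.0849 to 7.50 CPM) were higher in both comparisons of the lines. Without SKOV3 replicate 1 the level of MUC13 in that line was 0.127 CPM. MUC12 (4.68 to 2.25 CPM) was lower between the untreated lines alone, and no longer called with library totals or the trend removed. Of 8 genes induced through the estrogen receptor, all 4 tested between the untreated lines were higher in SKOV3/DDP, where ESR1 had 12 counts, in a comparison with 46.1% of all genes called higher. They were CA12 (4.38 to 491 CPM), AREG (25.2 to 143 CPM), GREB1 (0.838 to 3.21 CPM) and PDZK1 (1 count to 0.692 CPM). PDZK1, and GREB1 with 29 counts in SKOV3, passed the filter through SKOV3/DDP alone. Their directions were thus set by the filter, and 4 of 4 higher is no result about the list. Any part of ESR1 in these levels was not tested. AREG was at 91.3 CPM in SKOV3/DDP without replicate 2. With PAE in both lines the same 4 genes and TFF1 were higher and MYB lower, where 27.5% of all genes were called higher and 27.1% lower.

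Of the closest family members of the transcription factors, 5 of 6 were tested between the untreated lines, where 84.7% of all genes were called. PAX2 and SOX18 (24.7 CPM to 0 counts) were lower in SKOV3/DDP and PAX5 (0 counts to 1.42 CPM) was higher, while EMX1 and ESR2 were not called. With PAE in both lines PAX2, SOX18 and ESR2 were lower. Markers of other organs that use PAX8 were few. Of 9 thyroid and kidney genes, FOXE1 (33.8 CPM to 0 counts) and NKX2-1 (1.20 to 0.427 CPM) were lower and TG (0.0852 to 7.15 CPM) was higher in SKOV3/DDP, also with PAE in both lines, though NKX2-1 turned to 0.76 between the untreated lines with the trend removed. Of 6 genes of mesothelium and ovarian surface, LRRN4 (0.114 to 22.2 CPM) and TCF21 (0 counts to 4.03 CPM) were higher and BNC1 (5.25 to 0.0998 CPM) lower, in both comparisons of the lines. CALB2 and UPK3B, which mark mesothelium together with MSLN and WT1, were not called, but were called higher between the untreated lines by library totals and with the trend removed.

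Markers of intestinal epithelium moved with the difference between the lines. Of 11, 6 were tested and all 6 were higher in SKOV3/DDP, both untreated and with PAE, where LGR5 was no longer called by library totals or with the trend removed. Of all genes 46.1% were called higher untreated and 27.5% with PAE, and the fit of the libraries with PAE alone tested 5 of the 6 and called 4. They were CDH17, CDX2, HNF4A, VIL1, CDX1 and LGR5. Each had at most 3 counts in untreated SKOV3 and at most 15 with PAE, and so passed the filter through SKOV3/DDP alone. The direction of all 6 was thus fixed by the filter, and 6 of 6 higher is no result about these genes. Their median log2 fold change was 9.88, and 7.57 with the 5 genes without a count in SKOV3 set to their bound. CDH17, a cadherin of the gut, was at 0 counts in SKOV3 and at 339 CPM in SKOV3/DDP, and CDX2, the homeobox factor of intestinal fate, at 0 counts and 163 CPM. HNF4A, a nuclear receptor of gut and liver, was at 0.0852 and 28.1 CPM, and VIL1, the actin-binding protein villin of the brush border, at 0 counts and 10.97 CPM. The summed level of the 11 genes was 0.0848 to 0.256 CPM in the SKOV3 libraries, 0.355 to 0.813 with PAE, 527 to 584 in SKOV3/DDP and 181 to 262 in SKOV3/DDP with PAE. KRT20, CEACAM5, MUC2 and TFF3 of the list had at most 10 counts in any group. The part of these genes in the level of the lineage markers was not tested. Fewer cells of a type and less RNA per cell cannot be told apart in bulk libraries such as these.

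Markers of leukocytes, endothelium and fibroblasts were led by CD68, a lysosomal protein, with the others at lower levels. Of 9 genes, 4 were tested, with CD68 (52.4 to 97.1 CPM) and VWF (0.258 to 0.913 CPM) higher and PECAM1 (4.29 to 0.872 CPM) and PDGFRB (3.28 to 0.964 CPM) lower in SKOV3/DDP. That stands beside 84.7% of all genes called. PECAM1 was at 0.558 CPM in SKOV3/DDP without replicate 1, and PDGFRB at 0.594 without replicate 2. DCN had no count in either SKOV3/DDP group and was at 3.05 CPM in SKOV3 with PAE, where PECAM1 was at 7.66 CPM. With PAE in both lines CD68 was higher and PECAM1 and DCN lower. PTPRC had at most 2 counts in a group and CDH5 had none. Their summed level was 54.4 to 70.2 CPM in SKOV3, 25.4 to 42.3 with PAE, 86.5 to 107 in SKOV3/DDP and 45.3 to 57.3 in SKOV3/DDP with PAE.

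Within each line, the wider lists were compared with and without PAE. In SKOV3, 14 Müllerian genes were tested, 6 higher and 6 lower (12 of 14, beside 75.3% of all genes called), and the split was 8 and 3 by library totals and 4 and 1 with the trend removed, with FOXL2 at −2.46, then 0.10. Of the 9 other antigens tested in SKOV3, CD24 was higher and CLDN4, BCAM, KLK10 and SLPI lower, and BCAM and CLDN4 turned with the trend removed. Of the 6 intestinal genes, LGR5 was higher in SKOV3, from 0 to 15 counts, and not called with the trend removed. In SKOV3/DDP, where 11.8% of all genes were called higher and 14.7% lower, OVGP1 was higher and HOXA13 and WNT4 lower among 14 Müllerian genes. CD24, CLDN3, BCAM and KLK10 were lower there among 9 antigens. CDH17, CDX2, CDX1, VIL1 and LGR5 were lower with PAE in SKOV3/DDP, 5 of 6 intestinal genes tested, under each scaling. Under TMM scaling this stood beside 14.7% of all genes called lower. The folate carriers SLC19A1 and SLC46A1 were lower with PAE in both lines, and neither passed in SKOV3 with the trend removed.

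Of the remaining lists in SKOV3 with PAE, the genes higher were CA12, PDZK1 and MYB of the estrogen response, BNC1 of mesothelium, SOX7 of the paralogs and DCN of the stroma. The genes lower were MUC12, PAX2, SOX18, CD68 and PDGFRB. With the trend removed, MYB, DCN, PAX2 and PDGFRB were not called, and SOX18 (−1.84, then 1.16) and CD68 (−1.12, then 0.73) were called higher. In SKOV3/DDP with PAE, where 11.8% of all genes were called higher and 14.7% lower, PDZK1 was higher, and CA12, MUC13, MUC3A, TCF21, EMX1, PAX5, CD68, PDGFRB and VWF were lower. By library totals CA12 and MUC13 were not called there. No thyroid or kidney gene tested passed with PAE in either line.

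**Figure D4:**
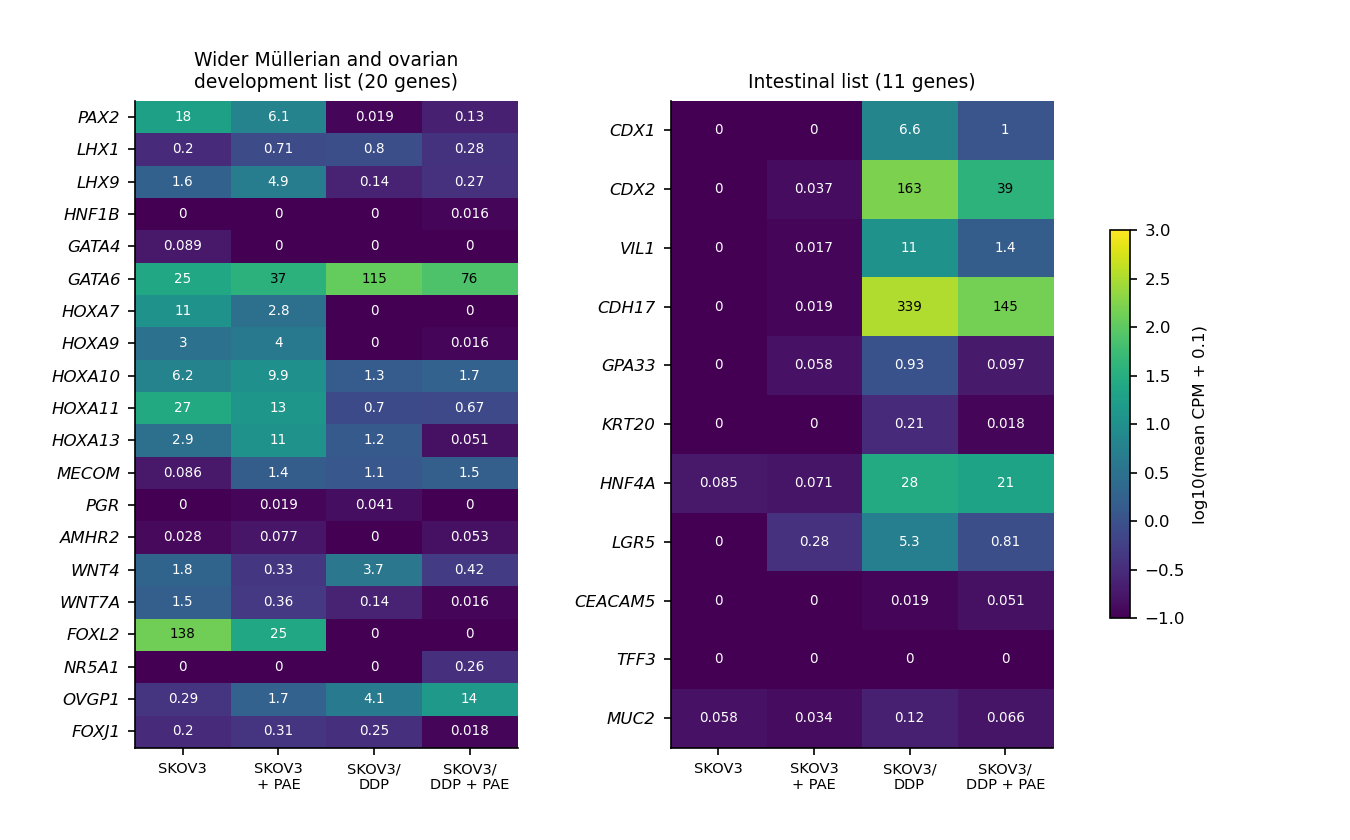
Mean CPM of 3 libraries (number in each cell) and its logarithm (color, log10 of CPM plus 0.1) for the 20 genes of the wider Müllerian list (left) and the 11 intestinal genes (right) in the 4 groups. FOXL2, HOXA7 and HOXA9 have at most 1 count in either SKOV3/DDP group, while CDH17, CDX2 and HNF4A are above 20 CPM in both.

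The protein-coding genes whose log2 CPM over the 12 libraries was most like that of each member, by Pearson's r, were SIRPA and HOXD11 for WFDC2 (0.999 each), TSTD1 and COL17A1 for FOLR1 (0.993 and 0.992), P2RX5 and ARAP3 for PAX8 (0.989 and 0.982), OPLAH and MXRA8 for MSLN (0.989 and 0.985), POLR1G and EVL for MUC1 (0.984 and 0.981) and INHBA and TNFAIP6 for MUC16 (0.979 and 0.971). The 12 points share 4 groups, so that the difference between the lines alone gives a high r, and they are a description.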

How the data were processed

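RNA was measured in 12 libraries of SKOV3 and SKOV3/DDP cells, grouped by their titles, with mRNA captured on poly-T beads and made into NEBNext Ultra libraries. The deposited values are unnormalized whole-number counts of each gene, made by the authors, beside gene lengths and GRCh38 coordinates. The submitters' processing notes name HISAT2 2.0.5, StringTie 1.3.3b, DESeq2 and edgeR without their roles, and the counting program and strand are not given in the sources used here. Of 47219 loci, 869 without a gene name were left out.

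Counts were filtered with filterByExpr, scaled by TMM factors and compared by the quasi-likelihood test (2-sided) of edgeR 4.0.16 in R 4.3.3, with Benjamini-Hochberg adjustment over all genes tested and a threshold of 0.05. The untreated lines had a fit to themselves, of 6 libraries, and all other comparisons came from 1 fit of 12 libraries and 4 groups. The SE was taken as the absolute log2 fold change over the root of the F statistic. For a group without counts the fold was computed against 3 counts over the group. No fold is given where both groups had under 10 counts. Pearson's r used log2 CPM with edgeR's default prior count, for members whose mean reached 1 CPM in a group. The exact permutation tests used log2 of CPM plus 0.5.

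The members and lists were chosen with earlier results of these data known. From the intestinal list, 1 gene is not reported here and enters none of the values of the list. All 10 members are named. From each further list, the genes tested are counted, up to 4 with the highest mean CPM are named, and so are those that set a count of 5 or fewer. FOLR2, FOLR3, KRT20, CEACAM5, MUC2, TFF3, PTPRC, CDH5 and genes that changed with a setting were named after their values were seen. Same-numbered libraries of different groups correlated between −0.171 and 0.117, so that replicates were treated as unpaired, and no library was a duplicate.

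The alternatives were DESeq2 1.42.0, library totals only, no filter, a minimum of 10 counts per library, the replicate block, other libraries in the fit, the criteria of the methods (unadjusted p under 0.05 and absolute log2 fold change over 2), each library left out, and the removal, by offsets, of a GC and length trend (splines of 5 degrees of freedom, fitted to genes whose mean log2 CPM reached 2). GC content came from GENCODE 29 and covered 94.0% of genes in the smaller fit and 91.5% in the larger. Promoter windows came from RefSeq, which had 1 or more for 7 members.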

Additional observations from a re-analysis of the deposited data

Results flagged for a closer look

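Under TMM scaling the effect of PAE on MSLN differed between the lines. The interaction term (SKOV3/DDP minus SKOV3) was 1.38 on the log2 scale, with an adjusted p of 0.0151 from edgeR's quasi-likelihood test. MSLN was lower with PAE in 3 of 3 libraries of SKOV3, while in SKOV3/DDP the libraries with and without PAE overlapped. With the GC and length trend removed the term was −1.08 (adjusted p = 0.0133, same test), and the untreated SKOV3 libraries, which carry that trend, enter it. MSLN in SKOV3 was then higher with PAE, at a log2 fold change of 0.97. By library totals the term did not pass. The part of the trend in this difference was not tested further.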

How the results depend on the processing

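Between the lines, untreated or with PAE, no member changed direction, and none lost its call by adjusted p where it was tested (MSLN, untreated, did not meet the criteria of the methods), but the number called fell from 6 to 3 of 3 tested with at least 10 counts in every library. For PAE in SKOV3, 4 members were called, and 0 by the criteria of the methods, 2 by library totals, 2 with at least 10 counts, and 2, both higher, with the GC and length trend removed, alone or with the replicate block. It was 6 without a filter (with MUC1 and ESR1), and 5 (with MUC1, lower) by DESeq2, by a fit of that line alone and without SKOV3 replicate 2. For PAE in SKOV3/DDP, the fit of that line alone and DESeq2 each called 1. For the difference of the PAE effects 1 was called, against 0 by the criteria of the methods, 2 without a filter (MSLN and ESR1), 2 with the trend removed, alone or with the replicate block, and 1 to 2 with a library left out (2 without SKOV3 replicate 1, SKOV3_PAE replicate 3, SKOV3/DDP replicate 1 or SKOV3/DDP_PAE replicate 2). Why these counts moved was not tested, apart from the genes that stricter filters leave out.

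The signs that turned were these. For PAE in SKOV3, the log2 fold change became 0.30 for PAX8, 0.75 for WFDC2, 0.97 for MSLN and 1.55 for MUC1 with the trend removed, and 0.26, 0.73, 0.94 and 1.53 with the replicate block added. MUC1 was at 0.059 by library totals. For the difference of the effects, PAX8 was at −0.85, MSLN at −1.08 and MUC1 at −1.89 with the trend removed, and at −0.81, −1.04 and −1.89 with the replicate block added, while PAX8 was at −0.29 and MUC1 at −0.42 by library totals. With a library left out, MUC1 ranged from −0.12 to 0.73 for that difference, and MUC16 from −0.15 to 0.57 for PAE in SKOV3/DDP. The replicate block alone changed no call of a member, with 6 called between the untreated lines, 4 and 0 for PAE in SKOV3 and SKOV3/DDP, 6 with PAE in both lines and 1 for the difference of the effects.

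All genes called for PAE in SKOV3 were 12895, and 7886 with the trend removed. For the difference of the effects they were 10778, and 6547 with the trend removed. For PAE in SKOV3/DDP 4526 were called, 2815 without SKOV3/DDP replicate 1, 2837 without SKOV3/DDP replicate 3 and 1218 by the criteria of the methods. Depth limits WT1, EMX2, SOX17 and ESR1, which had at most 14 counts in a group, and FOLR1 in SKOV3. Without a filter ESR1 was also called, at least 2.81-fold higher in untreated SKOV3/DDP and at least 2.91-fold higher with PAE in SKOV3, both against 3 counts over untreated SKOV3, which had none.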
